A study of Mus musculus with 20 samples.

Results

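The hippocampus of Ncs1-/- mice was compared with that of wild-type mice in 10 RNA-seq libraries, 5 per genotype, taken from a series of 20 libraries. The libraries were chosen by their titles, which give genotype, region and a number from 1 to 5, and every library labelled hippocampus was used. Both genotypes were on the C57Bl6/J strain background, and the labels name no driver or cell type that restricts the knockout. The sources used here do not state age, sex, the part of Ncs1 that was deleted or how the line was made. Brains were dissected and frozen before total RNA was extracted, and the other 10 libraries of the series are frontal cortex of the same 2 genotypes. No label says whether the 5 libraries of a genotype came from 5 animals, so the p-values measure the spread between these libraries, which may be technical in part.

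Ncs1 encodes neuronal calcium sensor 1, a small protein with EF-hand calcium-binding sites and a myristoyl group at its amino terminus that tethers it to membranes. Its reported partners include phosphatidylinositol 4-kinase beta, the dopamine D2 receptor, the IL1RAPL1 receptor, inositol trisphosphate receptors and voltage-gated calcium channels, and it has been studied for its effects on transmitter release and on plasticity in the hippocampus. The hippocampus consists of the pyramidal cell fields CA1, CA2 and CA3 and the dentate gyrus, whose granule cells are added to in adult life. The choroid plexus, which secretes cerebrospinal fluid and makes transthyretin in very large amounts, lies against the hippocampus in the ventricle, and the meninges lie along its other face. RNA of these tissues can enter a dissected hippocampus.

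Between 20.0 M and 34.6 M counts were available per library, 22.6 ± 2.64 M in wild type and 28.5 ± 5.19 M in knockout (SD, n = 5 each). Levels are given as CPM, counts per 1 M counts of the library, after TMM scaling, which corrects for depth and for differences in composition between libraries. Of 17586 genes listed, 15042 had enough counts to be tested. The dentate granule cell gene Prox1 was at 87.5 to 185 CPM and the CA1 gene Fibcd1 at 148 to 198 CPM over the 10 libraries. Their levels in frontal cortex were not set beside these, so the region label itself was not tested.

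Choroid plexus RNA was present in 3 libraries in particular. Ttr, which encodes transthyretin, was at 4.88, 18.5, 5.74, 2014 and 15 CPM in wild-type libraries 1 to 5 and at 28.9, 3162, 2.98, 324 and 11.5 CPM in knockout libraries 1 to 5. Wild-type library 4, knockout library 2 and knockout library 4 thus stood far above the other 7, which lay between 2.98 and 28.9 CPM. The same 3 libraries were the highest for 13 of the 14 choroid plexus markers tested. Ttr is among the 13, and the libraries were picked by it, so its place in the count was fixed. The exception was Ace, which encodes angiotensin-converting enzyme, at 24.4 CPM in knockout library 5 against 21.6 CPM in knockout library 4. Kcne2 and Slc4a5, the remaining 2 markers on the list, did not pass the filter on low counts but had 449 and 592 counts in wild-type library 4, 750 and 815 in knockout library 2, and 110 and 97 in knockout library 4. In the other 7 libraries Kcne2 had 0 to 13 counts and Slc4a5 0 to 13.

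**Figure D1:**
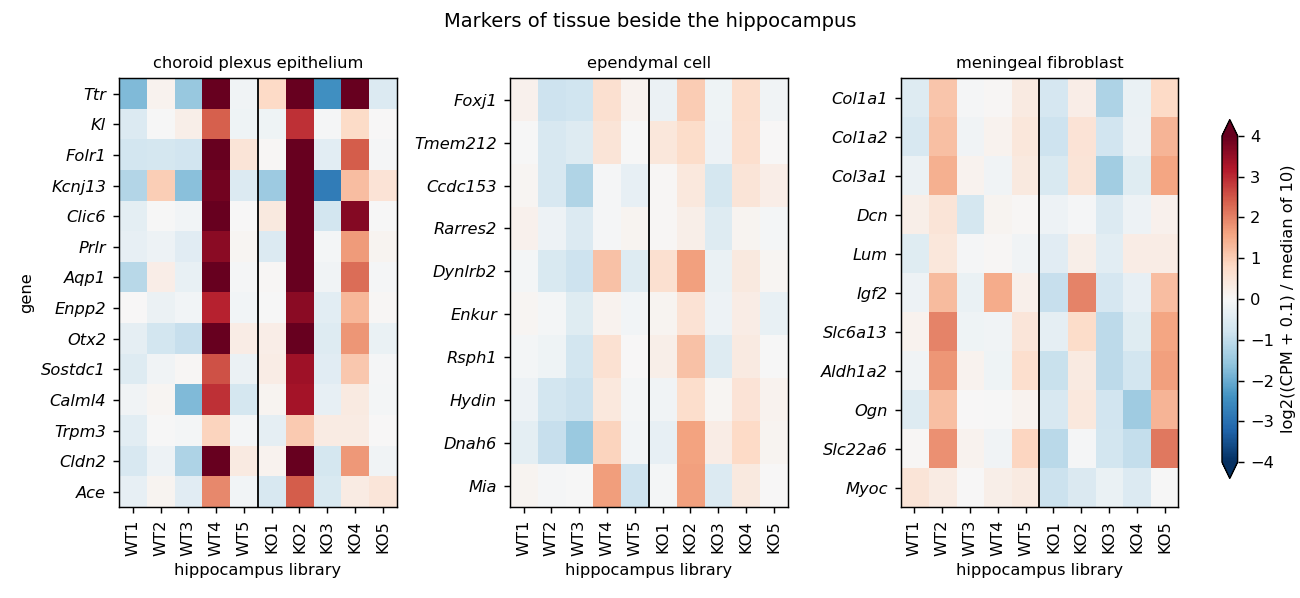
Level of each tested marker of choroid plexus epithelium, ependymal cells and meningeal fibroblasts (rows) in the 10 hippocampus libraries (columns, wild type left of the line and knockout right), as the log2 ratio of CPM + 0.1 to the median of the 10 libraries. Choroid plexus markers are high in wild-type library 4 and knockout libraries 2 and 4, and most meningeal markers in wild-type library 2 and knockout library 5.

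The summed level of the 14 tested choroid plexus markers ranged from 314 to 4130 CPM in wild type and from 347 to 6175 CPM in knockout, so the genotypes overlapped. The first principal component of the log2 levels held 25.1% of the variance, with scores of 22.5 for wild-type library 4, 29.5 for knockout library 2 and 12.4 for knockout library 4, and of 0.262 or lower for the rest. Ependymal markers, from the ciliated cells that line the ventricle, had the same 3 libraries on top for 7 of 10 genes. Meningeal fibroblast markers followed another pattern, with those 3 libraries on top for 0 of 11 genes. The collagen gene Col1a2 was at 8.40, 30.1, 11.8, 14.5 and 18.0 CPM in wild-type libraries 1 to 5 and at 7.26, 19.2, 7.60, 11 and 33.8 CPM in knockout libraries 1 to 5. Fmod, which encodes the matrix protein fibromodulin, was likewise highest in wild-type library 2, at 42.0 CPM, and knockout library 5, at 56.1 CPM. Fmod is not on the list. By the list's median log2 level, relative to each gene's mean, wild-type library 2 (1.14) and knockout library 5 (1.26) were the highest of their genotypes. By the summed level knockout library 2, at 399 CPM, was above knockout library 5, at 381 CPM, and wild-type library 2 was at 405 CPM. The calls, the next genes by p and the gene lists were also computed without the libraries that stood apart.

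Ncs1, the targeted gene, was compared first because it checks the labels. Its level was 431, 441, 470, 439 and 430 CPM in wild-type libraries 1 to 5 and 328, 285, 315, 305 and 282 CPM in knockout libraries 1 to 5. All 5 knockout libraries lay below all 5 wild-type libraries, as the genotype labels require, and the knockout mean was 68.5% of the wild-type mean. The log2 fold change of knockout over wild type was -0.55 (SE 0.05, 95% interval -0.66 to -0.43), and the exact two-sided permutation test over the 252 arrangements of the libraries gave p = 0.00794, the smallest it can give. Between 7226 and 11044 counts of Ncs1 remained in each knockout library, and counts per gene do not tell which part of the transcript they came from. In bulk tissue, fewer cells that express a gene and less RNA per cell cannot be told apart.

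Besides Ncs1, 3 genes passed an adjusted p of 0.05 in edgeR's quasi-likelihood test with Benjamini-Hochberg adjustment, which made 4 of 15042 genes (0.0266%), 2 higher (0.0133%) and 2 lower (0.0133%). Hmcn2, which encodes hemicentin 2, a very large extracellular matrix protein with immunoglobulin-like domains, rose in knockout. Its level was 0.580, 0.195, 0.467, 0.429 and 0.492 CPM in wild-type libraries 1 to 5 and 3.15, 3.86, 8.06, 5.62 and 4.18 CPM in knockout libraries 1 to 5. These levels rest on 4 to 12 counts per wild-type library and 98 to 192 per knockout library. The lowest knockout library was still several times the highest wild-type one, and knockout library 3 was the highest of the 10. The fold difference was 11.3, with a 95% interval from 7.04 to 18.1, so its size is known less well than its direction.

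Cercam, named for a cerebral endothelial cell adhesion molecule and a relative of the collagen galactosyltransferases, fell in knockout. It was at 4.54, 4.34, 3.73, 3.90 and 3.98 CPM in wild-type libraries 1 to 5 and at 2.08, 1.46, 1.30, 1.69 and 1.36 CPM in knockout libraries 1 to 5. The groups were apart, with the lowest wild-type library at 3.73 CPM and the highest knockout library at 2.08 CPM. The knockout level was 0.388 of the wild-type level (95% interval 0.311 to 0.483).

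Trub2, the gene of an enzyme that makes pseudouridine in mitochondrial RNA, rose in knockout, from 23.5, 21.1, 26.3, 23.9 and 20.4 CPM in wild-type libraries 1 to 5 to 36.3, 32.3, 35.2, 34.6 and 33.6 CPM in knockout libraries 1 to 5. The 5 knockout libraries were close together and all above the highest wild-type library. The fold difference was 1.49 (95% interval 1.34 to 1.66). The first 179 bases of the Trub2 model overlap the start of Coq4, a gene of coenzyme Q synthesis on the other strand, and no source used here states whether the counting used strand, so there the reads of both genes cannot be told apart. For Coq4 the log2 fold change was -0.20 (SE 0.09), and the genotypes overlapped, from 11 to 13.5 CPM in wild-type libraries and from 9.36 to 12.2 CPM in knockout libraries.

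**Figure D2:**
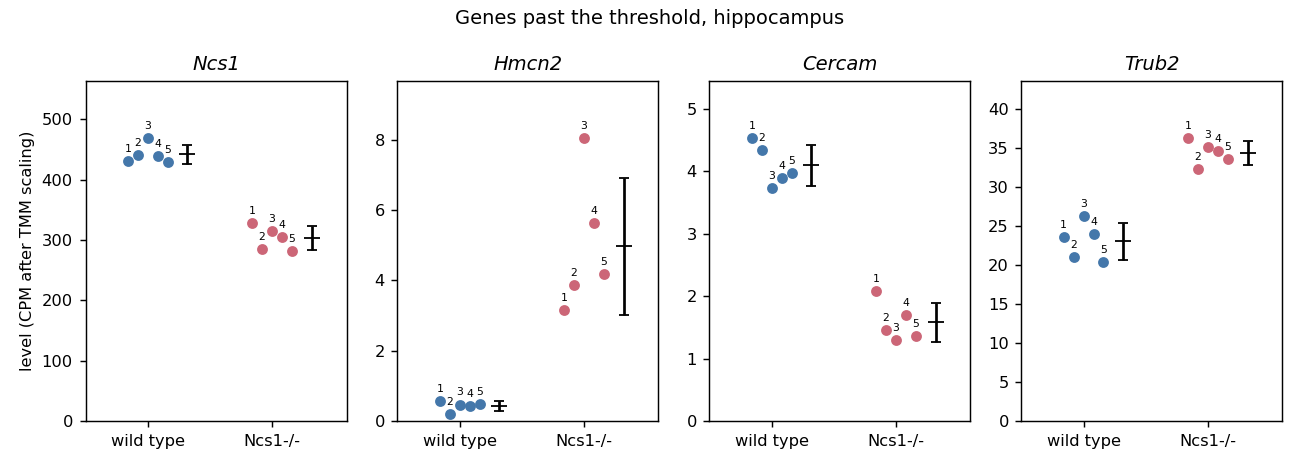
Level in CPM after TMM scaling of the 4 genes past the threshold, with 1 point per library labelled by its number and the mean with its SD (n = 5) beside each group; each panel has its own axis from 0. For each gene the 5 knockout libraries lie outside the range of the 5 wild-type libraries.

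The 4 genes lie on chromosome 2, and their promoters are shown because they are the sequences next to the start of each gene whose level differed. Each line gives 100 bases before the annotated start and the first 20 bases of the transcript in the RefSeq annotation of GRCm38.p6, 5′ to 3′ on the gene's own strand, with the dinucleotide CG in capitals.
Ncs1, chr2:31245823-31245942, plus strand: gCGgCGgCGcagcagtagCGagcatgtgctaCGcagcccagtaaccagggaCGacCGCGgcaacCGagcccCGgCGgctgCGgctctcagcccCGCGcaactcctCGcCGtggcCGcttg
Hmcn2, chr2:31314232-31314351, plus strand: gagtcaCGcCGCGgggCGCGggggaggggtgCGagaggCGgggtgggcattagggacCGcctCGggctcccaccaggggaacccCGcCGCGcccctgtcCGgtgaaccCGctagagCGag
Cercam, chr2:29869394-29869513, plus strand: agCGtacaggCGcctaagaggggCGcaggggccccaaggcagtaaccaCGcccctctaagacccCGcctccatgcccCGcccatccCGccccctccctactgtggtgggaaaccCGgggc
Trub2, chr2:29787652-29787771, minus strand: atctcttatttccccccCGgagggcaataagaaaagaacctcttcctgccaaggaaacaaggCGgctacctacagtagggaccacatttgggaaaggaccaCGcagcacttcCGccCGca
In the 300 bases of the promoter table the counts of CG were 40 for Ncs1, 26 for Hmcn2, 21 for Cercam and 12 for Trub2, against a median of 7 over 32851 mouse promoters. Of all promoters, 96.1% had fewer than Ncs1, 83.1% fewer than Hmcn2, 75.2% fewer than Cercam and 60.4% fewer than Trub2. The letters TATAAA, searched on both strands, occurred in none of the 4 windows and in 13.6% of all promoters. The Trub2 window lies inside the Coq4 gene, as both genes start there in opposite directions. These are descriptions of the sequence, and no binding or methylation was measured.

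The libraries that stood apart were then removed. Without the 3 libraries with the most Ttr, which left 4 wild-type and 3 knockout libraries, 0 genes passed edgeR's adjusted threshold and 367 had an unadjusted p under 0.05. The fold changes moved little. Hmcn2 had a log2 fold change of 3.52, Cercam -1.38, Trub2 0.61 and Ncs1 -0.53, with edgeR adjusted p-values of 0.0955, 0.292, 0.416 and 0.255. With log2 Ttr as a covariate in place of removal, the same 4 genes passed edgeR's test, at adjusted p-values of 0.0018 for Hmcn2, 0.00307 for Ncs1, 0.00923 for Cercam and 0.0227 for Trub2. Without wild-type library 2 and knockout library 5, the pair richest in Fmod, Hmcn2 and Ncs1 passed, at edgeR adjusted p-values of 0.0172 and 0.0379. Cercam and Trub2 did not, at 0.0789 and 0.19 by edgeR, with log2 fold changes of -1.29 and 0.56. Trub2 did not pass when wild-type library 2 or knockout library 1, 3 or 4 was left out, with edgeR adjusted p-values of 0.0779, 0.0567, 0.0677 and 0.0617.

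Positions on chromosome 2 (build mm10) were set beside the levels. Ncs1 spans 31245923 to 31295471 and Hmcn2 31314332 to 31460738, both on the plus strand, with 0.0189 Mb between them. Cercam, at 29869494 to 29882840 on the plus strand, lies 1.36 Mb from Ncs1, and Trub2, at 29774684 to 29787671 on the minus strand, 1.46 Mb. Within 2 Mb of Ncs1, 91 other genes were tested, of which these 3 passed. The 88 that did not pass had a median log2 fold change of -0.02, 38 above 0 and 50 below, and for 76 of them (86.4%) the 95% interval lay within 1.5-fold in both directions. The groups overlapped for each of the 88, but over all tested genes only 0.479% were without overlap, so this says little. Of the 88, 6 had an unadjusted p under 0.05 in edgeR, as had 9 of the 91, against 3.78% over all tested genes. Whether the neighbours were shifted as a block was not tested. For Gpr107, a membrane protein gene that ends 0.0294 Mb before Ncs1, the log2 fold change was 0.01 (SE 0.05), and Ass1, the argininosuccinate synthase gene beyond Hmcn2, had -0.01 (SE 0.12). Fnbp1, which encodes a membrane-curving formin-binding protein, had 0.12 (SE 0.05, unadjusted p = 0.0204). Gpr107, Ass1 and Fnbp1 were named for their place beside Ncs1 after their values were seen.

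Over all tested genes the median log2 fold change was 0.01 and 568 genes (3.78%) had an unadjusted p under 0.05, 391 higher (2.6%) and 177 lower (1.18%). That count depended on single libraries, at 2098 without knockout library 1 and 324 without knockout library 4. How narrowly a change could be bounded depended on the level of the gene. The median SE of the log2 fold change was 0.09 over all genes, 0.30 for those under 1 CPM, 0.15 between 1 and 10 CPM, 0.07 between 10 and 100 CPM and 0.06 above 100 CPM. For 12601 genes (83.8%) the 95% interval lay wholly within 1.5-fold up or down. That share was 7.58% under 1 CPM, 70.4% between 1 and 10 CPM, 97.6% between 10 and 100 CPM and 99% above 100 CPM. A fitted change over 2-fold was found for 24 genes, 11 of them at a mean level of 1 CPM or more, and one over 1.5-fold for 176 genes, 80 of them with such a mean. For most genes above 10 CPM these libraries thus bound the difference well below 1.5-fold, and for genes under 1 CPM they do not.

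**Figure D3:**
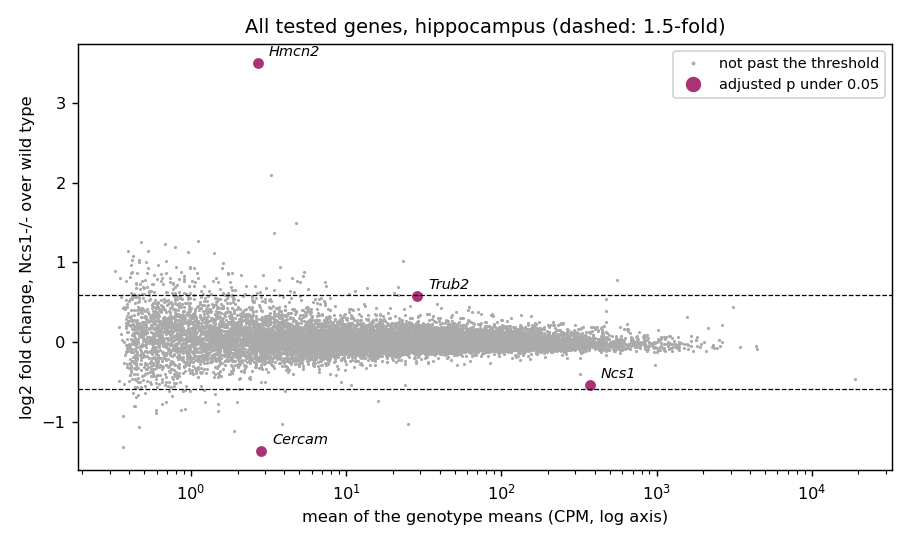
Log2 fold change of knockout over wild type (y axis) against the mean level of the 2 genotypes in CPM (x axis, log scale) for the 15042 tested genes, with dashed lines at 1.5-fold. The 4 genes past the threshold are named; the spread of the other genes widens towards low levels.

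The 2 genotypes did not overlap at all for 72 genes (0.479%), 42 higher in knockout (0.279%) and 30 lower (0.199%). With libraries that differ only by chance, a gene's groups would be apart with a probability of about 0.00794, the smallest p of the permutation test. The share found does not exceed this, so lack of overlap alone says little about a gene. The 72 included 11 of the 1200 genes tested on chromosome 2 (0.917%) and 13 of the 935 on chromosome 4 (1.39%). Those on chromosome 4 included Unc13b and Hpcal4, described below, and lie on another chromosome than Ncs1. On chromosome 2 the 11 comprised the 4 called genes and 7 others, among them Lypd6b, 18.5 Mb from Ncs1, and Arl5a, 21.1 Mb away, which was named after its values were seen with -0.21 (SE 0.06) on the log2 scale.

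The 12 genes with the next smallest p did not pass. Myoc, which encodes myocilin, a secreted glycoprotein known from the eye, was at 23.3, 20.3, 16.7, 19.4 and 20.9 CPM in wild-type libraries 1 to 5 and at 8.92, 10.8, 13.5, 11.1 and 16 CPM in knockout libraries 1 to 5. The groups did not overlap. Among wild-type libraries Myoc was highest in library 1, and among knockout libraries in library 5, which also had the most Fmod. Its log2 fold change was -0.74 (SE 0.14) with an edgeR adjusted p of 0.709, and it was -0.67 without the 3 libraries with the most Ttr and -0.86 without the pair with the most Fmod. DESeq2 called Myoc, with an adjusted p of 0.00139. Myoc is also on the list of meningeal fibroblast markers, whose 11 tested members had a median log2 fold change of -0.25, with 2 above 0 and 9 below. That list's median log2 level was -0.37 in wild-type library 1, its lowest in wild type, and 1.26 in knockout library 5, its highest in knockout.

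Rbm43, which encodes an RNA-binding protein, was at 18.9, 15.3, 16.9, 15.5 and 13.7 CPM in wild-type libraries 1 to 5 and at 28.7, 22.0, 18.4, 25.5 and 27.7 CPM in knockout libraries 1 to 5. Knockout library 3 lay inside the wild-type range and the other 4 lay above it. The log2 fold change was 0.61 (SE 0.12) with an edgeR adjusted p of 0.809, while DESeq2 gave an adjusted p of 0.00748. Rbm43 is on chromosome 2, at 51924449 to 51935163.

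Xlr3b, a gene of an X-linked lymphocyte-regulated family with near-identical copies, was at 0.580, 1.07, 2.01, 0.156 and 2.42 CPM in wild-type libraries 1 to 5 and at 5.18, 5.83, 4.37, 5.15 and 6.07 CPM in knockout libraries 1 to 5. The wild-type libraries varied widely and the knockout libraries did not, and the groups did not overlap. The log2 fold change was 2.09 (SE 0.43), and reads shared among the copies make it uncertain. Lypd6b, a gene for a membrane-anchored modulator of nicotinic receptors, was at 5.36, 4.63, 4.95, 4.44 and 4.92 CPM in wild type and at 2.88, 3.98, 3.40, 2.20 and 3.40 CPM in knockout, each in the order of libraries 1 to 5. The groups did not overlap, and its log2 fold change was -0.61 (SE 0.14).

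Among the remaining genes of the 12, Htra1, a secreted serine protease, had -0.23 (SE 0.05) on the log2 scale, and the lowest wild-type library, at 130 CPM, lay below the highest knockout library, at 133 CPM. C2cd5, which takes part in the movement of glucose transporter vesicles, had 0.21 (SE 0.05), from 44.0 to 47.3 CPM in wild-type libraries and from 49.9 to 57.7 CPM in knockout libraries. Ccnyl1, a cyclin Y-like gene, had 0.31 (SE 0.07), from 8.92 to 10.8 CPM in wild-type libraries and from 11.6 to 12.9 CPM in knockout libraries. For C2cd5 and Ccnyl1 the groups did not overlap. Dnah10, an axonemal dynein gene, had 0.86 (SE 0.21), Pipox, an enzyme of pipecolic acid breakdown, 0.94 (SE 0.23), Gm15328 0.70 (SE 0.17), Gm2260 1.37 (SE 0.34) and 4933427I22Rik -1.32 (SE 0.31). Gm2260 overlaps the gene models Anxa11, Duxbl1, Duxbl2, Duxbl3 and Gm2274 on its strand, which leaves its counts uncertain. Of the largest differences without overlap at a mean of at least 1 CPM, Zfhx2os, an antisense transcript of Zfhx2 whose reads cannot be told from it without the strand, had 0.68 (SE 0.19) and Eif4a3l1, a retrocopy-like gene of an RNA helicase, -0.41 (SE 0.12). Each of the 12 next genes kept its direction both without the 3 libraries with the most Ttr and without the pair with the most Fmod. Xlr3b had 1.75 without the former and 1.99 without the latter, and Dnah10 0.68 and 0.83.

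The same genes were set beside frontal cortex, whose 10 libraries are in a separate table and where 4 of 14823 tested genes (0.027%) passed edgeR's adjusted threshold. Those 4 were Ncs1, Hmcn2, Trub2 and Lypd6b, so Lypd6b passed in cortex and not in hippocampus, and Cercam the reverse, with an edgeR adjusted p of 0.0719 in cortex. In cortex the log2 fold change was 3.11 (SE 0.23) for Hmcn2, -0.51 (SE 0.04) for Ncs1, -1.04 (SE 0.17) for Cercam and 0.54 (SE 0.06) for Trub2. Of the 12 next genes, Myoc had -1.09 (SE 0.19) in cortex, Lypd6b -1.05 (SE 0.13), Htra1 -0.20 (SE 0.05) and C2cd5 0.17 (SE 0.05). Rbm43 had 0.24 (SE 0.10) in cortex and Gm2260 -0.16 (SE 0.34). Of the 16 genes, 4 had an unadjusted interaction p under 0.05 in edgeR, 4933427I22Rik (0.00559), Gm2260 (0.00945), Rbm43 (0.0391) and Lypd6b (0.0395). The 16 were picked by p in hippocampus, and the interaction uses the same libraries. That choice favours large differences between regions, so 4 of 16 cannot be set against the share over all genes. For Lypd6b the difference was the greater in cortex, and 4933427I22Rik was not tested in the fit of cortex alone. For Cercam the interaction p was 0.162. Over the 15310 genes tested for a difference between the regions, 0 passed edgeR's adjusted threshold and 214 (1.4%) had an unadjusted p under 0.05, while DESeq2 called 1, Serpina3g. None of the hippocampal differences above was therefore shown to be particular to hippocampus.

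**Figure D4:**
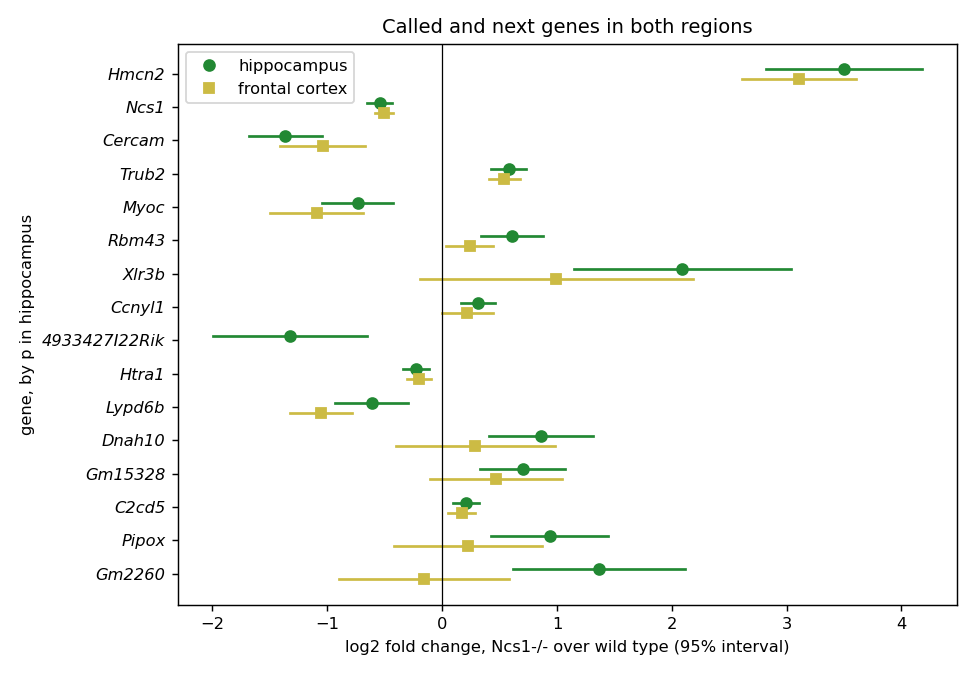
Log2 fold change of knockout over wild type with its 95% interval for the 4 called genes and the next 12 by p in hippocampus (circles) and in frontal cortex (squares), fitted separately; 4933427I22Rik was not tested in cortex. The 4 called genes lie on the same side of 0 in both regions, and the intervals of Xlr3b, Ccnyl1, Dnah10, Gm15328, Pipox and Gm2260 in cortex include 0.

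Markers of the hippocampal fields and cell types were read as lists, by the number of members above and below 0 and by the median, beside the median of 0.01 over all genes, of which 7988 were above 0 and 7054 below. No member of these cell type lists passed the threshold, but only 0.0266% of all tested genes did, so this says little. CA1 pyramidal neuron markers had 0 of 8 members above 0 and a median of -0.09, with Fibcd1, a chitin-binding receptor gene, at -0.11 (SE 0.07). The lowest of the 8, Dcn at -0.25, is also on the list of meningeal fibroblast markers. CA3 markers had 3 of 7 above 0 and a median of -0.00, with Grik4, a kainate receptor subunit, at 0.02 (SE 0.07). CA2 markers had 4 of 7 above 0 and a median of 0.03, with Rgs14, a regulator of G-protein signalling, at -0.13 (SE 0.11). None of the field markers named here was separated between genotypes, but over all tested genes only 0.479% were, so this says little.

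Dentate granule cell markers had 5 of 10 members above 0 and a median of -0.00. Dsp, the desmosomal protein gene of granule cells, was at 25.4, 50.3, 78.7, 86.4 and 58.9 CPM in wild-type libraries 1 to 5 and at 38.8, 58.4, 89.1, 48.7 and 60.9 CPM in knockout libraries 1 to 5. Libraries of 1 genotype thus differed up to about as much as any between genotypes, and the 95% interval of the log2 fold change, -0.65 to 0.60, leaves a difference of 1.5-fold possible. Calb1, the calcium buffer calbindin, was bounded more closely, at -0.14 (SE 0.07). Adult neurogenesis markers had 9 of 9 members above 0 and a median of 0.18. Dcx, the microtubule protein of immature neurons, had 0.15 (SE 0.10) and Sox11, a transcription factor of the same cells, 0.17 (SE 0.11). Eomes, which marks intermediate progenitors, had 1.2 (SE 0.72) and was at 2.01 CPM in knockout library 2 and 2.60 CPM in knockout library 4, against 0.0975 to 0.933 CPM in the other 8 libraries. Those 2 libraries are also among the 3 with the most Ttr. The third, wild-type library 4, had 2014 CPM of Ttr and 0.663 CPM of Eomes. The part of the carried-over tissue in the Eomes value was not tested. The median of the list was 0.14 without the 3 libraries with the most Ttr.

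Neuronal class markers were bounded closely. Glutamatergic neuron markers had 0 of 8 members above 0 and a median of -0.08, with the vesicular glutamate transporter Slc17a7 at -0.10 (SE 0.06). GABAergic interneuron markers had 2 of 12 above 0 and a median of -0.12, with the neuropeptide gene Npy at -0.26 (SE 0.10, unadjusted p = 0.0291) and the GABA-synthesising enzyme Gad1 at -0.00 (SE 0.05). The 95% interval of each of the 8 and of each of the 12 members lay within 1.5-fold.

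Glial and vascular markers gave small medians too. Astrocyte markers had 1 of 12 members above 0 and a median of -0.09. Gfap, the intermediate filament of astrocytes, was at 342, 315, 372, 307 and 395 CPM in wild-type libraries 1 to 5 and at 313, 290, 277, 329 and 295 CPM in knockout libraries 1 to 5. The groups overlapped, with a log2 fold change of -0.20 (SE 0.08, unadjusted p = 0.0189), and Acsbg1, an acyl-CoA synthetase, had -0.14 (SE 0.05). Microglia markers had 3 of 12 above 0 and a median of -0.06, with the complement gene C1qc at -0.20 (SE 0.07). Myelinating oligodendrocyte markers had 12 of 12 above 0 and a median of 0.07, and their median was -0.05 without the 3 libraries with the most Ttr. Endothelial markers had 4 of 9 above 0 and a median of -0.02, and mural cell markers 4 of 8 and a median of -0.00.

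The lists of neighbouring tissue moved with single libraries. Choroid plexus epithelium markers had 14 of 14 members above 0 and a median of 0.53, and no 95% interval lay within 1.5-fold. Their median was 0.13 without the 3 libraries with the most Ttr and -0.03 with log2 Ttr as a covariate. Ttr is itself on this list and set both the removal and the covariate, so these medians are no separate check. Ttr itself had a log2 fold change of 0.78 with an SE of 1.84. Clic6, a chloride channel gene of the same epithelium, was at 77.4 CPM in wild-type library 4, 116 CPM in knockout library 2 and 16.2 CPM in knockout library 4, against 0.672 to 1.58 CPM in the other 7. Ependymal markers had 10 of 10 members above 0 and a median of 0.41, or 0.28 without those 3 libraries, with the ciliary gene Hydin at 0.52 (SE 0.25). Zic1, a zinc finger transcription factor on the list of thalamic neuron markers, was at 11.4, 18.7, 15.8, 15.1 and 15.9 CPM in wild-type libraries 1 to 5 and at 9.81, 45.7, 9.74, 66.2 and 25.2 CPM in knockout libraries 1 to 5. Knockout libraries 2 and 4 were high, and its log2 fold change went from 1.02 (SE 0.46) to -0.05 without the 3 libraries with the most Ttr.

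Genes of the protein's own family and pathway were examined next. Of 10 tested members of the neuronal calcium sensor family, 4 were above 0 and 6 below, with a median of -0.04, and Ncs1 was the 1 that passed. Hpcal4, a hippocalcin-like sensor of neurons, was at 1076 ± 22.8 CPM in knockout against 1157 ± 57.5 CPM in wild type (SD, n = 5 each), and the groups did not overlap. Its log2 fold change was -0.10 (SE 0.04, unadjusted p = 0.0288), which does not pass. Hippocalcin itself, Hpca, had -0.08 (SE 0.12), the visinin-like gene Vsnl1 -0.06 (SE 0.09), Hpcal1 -0.07 (SE 0.06) and neurocalcin, Ncald, 0.03 (SE 0.05). The potassium channel-interacting sensors Kcnip1, Kcnip2, Kcnip3 and Kcnip4 had 0.01, -0.02, 0.00 and 0.04, with SEs from 0.06 to 0.10, and the sign of the first 3 turned under several other settings. For 9 of the 10 members the 95% interval lay within 1.5-fold in both directions, the exception being Ncs1 itself.

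Reported partners and effectors of NCS1 had 10 of 17 members above 0 and a median of 0.01. The kinase gene Grk2, whose product acts on dopamine receptors with NCS1, had -0.09 (SE 0.04), and Drd2, the dopamine D2 receptor, had 0.26 (SE 0.27) with wild type at 2.31 ± 0.237 CPM and knockout at 2.80 ± 1.30 CPM (SD, n = 5 each). Voltage-gated calcium channel subunits had 12 of 15 above 0 and a median of 0.08. Cacna1d, an L-type channel, was at 39.0, 48.1, 47.2, 51.6 and 56.0 CPM in wild-type libraries 1 to 5 and at 51.2, 52.1, 73.0, 61.4 and 61.3 CPM in knockout libraries 1 to 5. The groups overlapped, with a log2 fold change of 0.30 (SE 0.11, unadjusted p = 0.0163). Calcium stores, pumps and exchangers had 16 of 20 above 0 and a median of 0.05, with the ryanodine receptor Ryr3 at 0.27 (SE 0.13). Calmodulin, CaM kinases and calcineurin had 4 of 17 above 0 and a median of -0.03. All 15 channel, 20 store and 17 calmodulin-related members had 95% intervals within 1.5-fold.

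Synaptic genes were bounded as closely. Vesicle release genes had 3 of 20 members above 0 and a median of -0.03. Unc13b, which encodes the vesicle-priming protein Munc13-2, was at 36.9, 38.0, 35.1, 38.5 and 41.7 CPM in wild-type libraries 1 to 5 and at 43.8, 42.3, 43.2, 43.9 and 43.6 CPM in knockout libraries 1 to 5. The groups did not overlap, with a log2 fold change of 0.19 (SE 0.05, unadjusted p = 0.00247) that did not pass after adjustment, and it was 0.19 both without the 3 libraries with the most Ttr and without the pair with the most Fmod. AMPA, kainate and NMDA receptor subunits had 11 of 15 above 0 and a median of 0.01, metabotropic glutamate receptors 4 of 7 and 0.01, GABA-A receptor subunits 5 of 12 and -0.00, and postsynaptic scaffolds 6 of 14 and -0.02. In these 4 lists and in the vesicle list every member's 95% interval lay within 1.5-fold.

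Activity-dependent immediate early genes, which neurons switch on within minutes of firing, had 20 of 21 members above 0 and a median of 0.14. Of the 21, 0 passed, against 0.0266% of all tested genes. Npas4, the member with the smallest p, was at 10.7, 3.80, 3.59, 3.16 and 6.27 CPM in wild-type libraries 1 to 5 and at 8.48, 2.99, 17.3, 7.20 and 10.1 CPM in knockout libraries 1 to 5. The groups overlapped, and the log2 fold change was 0.75 (SE 0.42). The list's median log2 level, relative to the mean of each gene over the 10 libraries, ran from -0.41 in wild-type library 4 to 0.37 in wild-type library 1 and from -0.24 in knockout library 2 to 0.47 in knockout library 5, so that libraries of 1 genotype differed by more than the genotypes did. The list's median fold change was 0.03 without wild-type library 2 and knockout library 5. Atf3, a stress-induced transcription factor on the endoplasmic reticulum stress list, was between 0.607 and 0.697 CPM in wild-type libraries and at 0.476, 0.749, 1.89, 0.983 and 3.77 CPM in knockout libraries 1 to 5. Its log2 fold change of 1.27 (SE 0.50) was 0.60 without that pair, of which knockout library 5 had the highest Atf3.

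Glucocorticoid-induced genes had 2 of 12 members above 0 and a median of -0.14, with the metallothionein gene Mt2 at -0.29 (SE 0.09, unadjusted p = 0.0106). Mt2 was at 49.9, 48.0, 62.6, 57.8 and 67.0 CPM in wild-type libraries 1 to 5 and at 51.2, 41.0, 45.0, 50.4 and 46.4 CPM in knockout libraries 1 to 5, and the groups overlapped. Respiratory chain subunits had 1 of 38 above 0 and a median of -0.06, with the succinate dehydrogenase subunit Sdhd at -0.11 (SE 0.05). Every member's interval lay within 1.5-fold. The list's median log2 level, relative to each gene's mean, ran from -0.04 to 0.09 in wild-type libraries. In knockout libraries 1 to 5 it was 0.19, 0.02, -0.18, -0.10 and -0.11. That range encloses the wild-type range only through knockout library 1. Circadian clock genes had 11 of 15 above 0 and a median of 0.08, with Per3 at 0.29 (SE 0.15), and interferon-stimulated genes 9 of 17 and a median of 0.03. Of the 39 list medians, 29 kept their sign and 5 moved by over 0.1 without the 3 libraries with the most Ttr, among them interferon-stimulated genes, to -0.11, and striatal neuron markers, from -0.00 to -0.12. Without the pair with the most Fmod 34 kept their sign and 5 moved by over 0.1, among them glucocorticoid-induced genes, to -0.32, haemoglobin genes, from -0.20 to -0.38, and meningeal markers, to -0.36. Apart from Ncs1, 0 members of the 39 lists passed edgeR's adjusted threshold. Over all tested genes 4 of 15042 (0.0266%) passed, so 0 among the members says little about the lists.

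**Figure D5:**
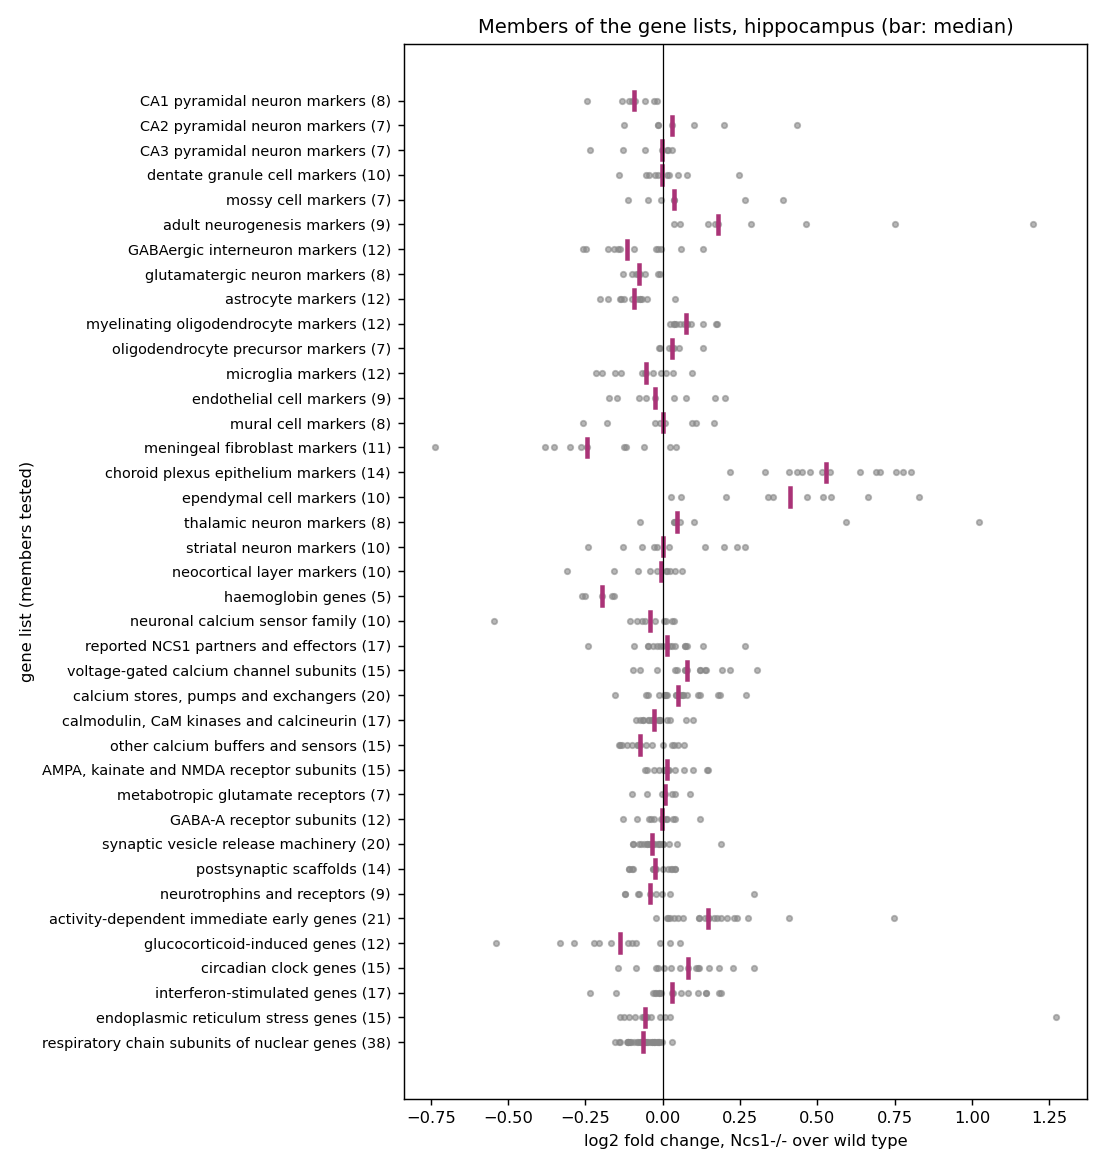
Log2 fold change of knockout over wild type for each tested member of the 39 gene lists (points) with the list's median (bar); the number of members tested stands beside each name. Most members lie within 0.25 of 0; choroid plexus and ependymal markers spread above it, and the leftmost point of the calcium sensor family is Ncs1.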

How the data were processed

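The authors deposited 1 table of expected counts per gene for the 10 hippocampus libraries and 1 for cortex, with 0 columns outside the labelled samples; per the submitters' processing notes, STAR 2.7.3a and Partek were used with build mm10. The sources used here do not state the annotation, strand setting or filter. Values were rounded to whole numbers, since 23.3% to 27.3% of a library's values were more than 0.001 from one, and the lowest total of a listed gene was 10. Within groups, the lowest chi-square per degree of freedom between libraries was 7.56, so none was treated as a duplicate.

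Genes were kept by filterByExpr, scaled by TMM and fitted in edgeR 4.0.16 (R 4.3.3) with quasi-likelihood tests and Benjamini-Hochberg adjustment at 0.05 over all 15042 tested genes. SEs and 95% intervals were derived from each gene's F statistic and fold change. Log2 levels used a prior count of 2. The difference between regions was an interaction over 20 libraries, which were taken as independent. No label says whether libraries of the 2 regions share a mouse. The fit was tested on simulated data. Promoters matched for 4 of 4 called genes.

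The genes named were Ncs1, those past the threshold, the next 12 by p, the 5 largest changes per direction without overlap at a mean of at least 1 CPM, the member with the smallest p in each list, choroid plexus markers, the calcium sensor family and 2 markers per cell type, of which some are not reported here. Members and lists were chosen with earlier results of these data known, and no list was tested as a set. Alternatives were other scaling, DESeq2 1.42.0, limma-voom (limma 3.58.1), other filters, removal of Rn45s or of carry-over markers, 1 fit of 20 libraries, the replicate number as a block, libraries left out, and log2 Ttr as a covariate. Leaving out wild-type library 2 and knockout library 5 was chosen after seeing the data.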

Additional observations from a re-analysis of the deposited data

Results flagged for a closer look

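Of 222 sets of 5 libraries checked, from 111 genes in each genotype, 16 held 1 library far from its 4 neighbours, and chance alone marks about 1 in 20 sets. In wild type, library 4 was far above the others for 11 choroid plexus markers. Ttr was at 2014 CPM there, against 4.88 to 18.5 CPM in the other 4 libraries, and the membrane protein gene Kl at 153 CPM against 20.2 to 34.6 CPM. The folate receptor gene Folr1 was at 16.7 CPM against 0.280 to 0.820 CPM, Clic6 at 77.4 CPM against 0.869 to 1.19 CPM, and the prolactin receptor gene Prlr at 84.5 CPM against 4.95 to 7.21 CPM. The water channel gene Aqp1 was at 14.5 CPM against 0.145 to 0.536 CPM, the lysophospholipase gene Enpp2 at 1336 CPM against 136 to 161 CPM, and the homeobox gene Otx2 at 14.6 CPM against 0.327 to 0.902 CPM. Sostdc1 was at 17.7 CPM against 2.03 to 3.03 CPM, the tight junction gene Cldn2 at 26.0 CPM against 0.373 to 1.35 CPM, and Ace at 65.7 CPM against 12.8 to 18.7 CPM. In knockout, library 2 was far above its 4 neighbours for Calml4, at 9.61 CPM against 0.672 to 1.14 CPM.

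The 4 remaining cases were neuronal genes in wild type. Library 3 was highest for Calb1, at 163 CPM against 141 to 144 CPM, for Slc17a7, at 1614 CPM against 1383 to 1416 CPM, and for Ncald, at 605 CPM against 534 to 541 CPM. Library 1 was highest for Lamp5, a marker of a class of interneurons, at 56.2 CPM against 30.4 to 34.6 CPM.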

How the results depend on the processing

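Other scalings, filters, limma-voom, removal of Rn45s or of carry-over markers, log2 Ttr as a covariate and 1 fit of 20 libraries each called 4 genes, and DESeq2 6. Leaving out 1 library gave 3 to 4 calls, 1 to 2 of them higher, and from 324 to 2098 genes at an unadjusted p under 0.05. Without the 3 libraries with the most Ttr there were 0 calls, 0 higher and 0 lower, with fewer libraries, and without wild-type library 2 and knockout library 5 there were 2, 1 higher and 1 lower. Both sets are smaller, and the cause was not tested. Library numbers did not pair the genotypes, with correlations of same-numbered libraries from -0.01 to 0.31 and 1 of 5 wild-type libraries closest to its own number, and with the number as a block 4 genes passed, as without the block, with 889 at an unadjusted p under 0.05 against 568. For the difference between regions, DESeq2 and the fit without knockout cortex library 5 each called 1 gene against 0.

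The fold changes of several genes turned sign, and not only small ones. With all 10 libraries Zic1 had 1.02 (SE 0.46) and Sostdc1 0.70 (SE 0.82) on the log2 scale. Without the 3 libraries with the most Ttr, Sox10 had -0.061, Zic1 -0.049, Kcnip1 -0.076 and Kcnip3 -0.037. Without wild-type library 2 and knockout library 5, Kcnip1 had -0.018, Kcnip2 0.030 and Kcnip4 -0.0060. Leaving out 1 library gave -0.61 to 1.86 for Sostdc1, -0.22 to 0.043 for Lamp5, -0.19 to 0.021 for Hpca, -0.11 to 0.021 for Vsnl1, -0.038 to 0.077 for Kcnip1, -0.078 to 0.024 for Kcnip2 and -0.041 to 0.057 for Kcnip3. Kcnip3 also had -0.00065 with RLE scaling, -0.0079 with upper quartile scaling, -0.0022 with DESeq2, -0.0075 with no filter, -0.0012 with a 1 CPM minimum, -0.0011 with Rn45s removed and -0.0062 with 20 libraries in 1 fit. No scaling moved the median of all genes by over 0.1.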

Other observations

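Erdr1, a gene of the pseudoautosomal region with repeated copies and hence uncertain counts, varied widely between libraries. It was at 43.3, 15.7, 23.1, 13.5 and 74.1 CPM in wild-type hippocampus libraries 1 to 5 and at 21.4, 1.38, 0.924, 0.669 and 56.7 CPM in knockout libraries 1 to 5. In frontal cortex it was at 36.9, 16.7, 18.3, 13.3 and 70.6 CPM in wild-type libraries 1 to 5 and at 16.2, 37.0, 0.992, 0.901 and 61.3 CPM in knockout libraries 1 to 5. The order by library number was alike in the 2 regions except for knockout library 2. Col6a4, a collagen gene, was at 0.628 CPM in wild-type hippocampus library 1 and 0.615 CPM in wild-type cortex library 1, and at 0.512 CPM in knockout hippocampus library 2 against 7.35 CPM in knockout cortex library 2. Over all tested genes, deviations from the group mean correlated most with the cortex library of the same genotype and number for 8 of 10 hippocampus libraries, the exceptions being knockout libraries 2 and 5, where same-numbered libraries had r of -0.14 and 0.11. The labels do not say whether a number marks the same mouse in both regions.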
